A study of Mus musculus with 32 samples.

Results

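The vomeronasal organ (VNO) detects pheromones with a transduction cascade of its own, and its libraries still hold most of the genes of the odor cascade of the main olfactory epithelium. Transcripts of 9 such genes were followed here: the cyclic nucleotide-gated channel subunits Cnga2, Cnga4 and Cngb1, the adenylyl cyclase Adcy3, the G protein subunit Gnal, the membrane protein Stoml3, the receptor transporting proteins Rtp1 and Rtp2, and Ric8b, an activator of the Gnal protein. They were chosen by name for their known roles in main olfactory sensory neurons, and they are 9 of the 49671 genes listed. Total RNA of the VNO epithelium was sequenced after ribosomal RNA removal from 32 mice, 1 mouse per library, all at postnatal day 42 and without treatment. The strains were 129S6/SVEV (129), C57/BL6 (B6), SJL/J (SJL) and SWR/J (SWR), with 4 females and 4 males of each. These are inbred strains, so that a strain here is a single genetic background.

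In main olfactory sensory neurons an odorant receptor activates Gnal, also called G alpha olf, which stimulates Adcy3. The cyclic AMP formed opens a channel made of Cnga2, Cnga4 and a short form of Cngb1. Cnga2 is the subunit the channel cannot do without, and Cnga4 and Cngb1 modify its properties. Rtp1 and Rtp2 bring odorant receptors to the cell surface, Ric8b acts as a chaperone and exchange factor for Gnal, and Stoml3 sits in the olfactory cilia. Vomeronasal sensory neurons signal instead through Gnai2 or Gnao1 and the channel Trpc2, and mice use them for pheromones.

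Depth ran from 5106398 to 18640871 reads on genes per library, with a median of 11461344.5. Markers listed for vomeronasal neurons were detected. Omp, the olfactory marker protein, had a median of 1643 TPM (transcript reads per length of the gene, scaled to the same total in each library). Gnai2 had 396 TPM and Xntrpc, the read-through gene that spans Trpc2, 31.2 TPM, with Trpc2 itself listed at 0. Omp is also listed for the odor cascade, so that its level does not separate the VNO from the main epithelium. The lowest number of genes with a read was 22690 and the highest 35073. Values of single libraries are deposited normalized counts, which are reads divided by the size factor of the library, and they compare libraries but not genes of unequal length.

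2 libraries were singled out after Cnga2, Gnal and Stoml3 were seen to be highest in them. B6 male replicates 3 and 4 were both above every other library for 90 of the 18382 genes that passed a filter on low counts, or 0.490%. For 16 genes, or 0.0870%, replicate 3 was above 2 times the highest of the other 30 libraries. Replicate 4 was not above the other 30 for all of these, as with Gm14744 at 7.63 against 106 at most. No other library or pair was counted in this way, so that these shares stand without a comparison. Gnal and Stoml3 were among these 16. The strain and sex tests of Cnga2, Gnal and Stoml3 that are named are therefore given with and without these 2 libraries.

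The first stretches shown are those before 3 of the genes, because they hold the motif CCCNNGGG, the core of the binding sequence of the Olf/EBF factors that are known to act at olfactory genes. RefSeq windows of GRCm38.p6, reaching 250 bases before and 50 after each annotated start, were at hand for Cnga2, Cnga4, Cngb1, Adcy3, Stoml3, Rtp2 and Ric8b. None was used for Rtp1 and Gnal. The motif reads the same on both strands, and capitals mark it in the lines that follow, each of which runs 5′ to 3′ on the strand of its gene. The Cnga2 stretch (chrX:71991758-71991815, plus strand) overlaps no annotated exon, and its motif starts 66 bases before the gene's start. The Cngb1 stretch (chr8:95306682-95306739, minus strand) overlaps none either, with the motif 129 bases before the start. The Rtp2 stretch (chr16:23930964-23931021, minus strand) lies in an intron of a longer Rtp2 model, with the motif 202 bases before the RefSeq start.
Cnga2: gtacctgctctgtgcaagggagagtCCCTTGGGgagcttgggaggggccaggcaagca
Cngb1: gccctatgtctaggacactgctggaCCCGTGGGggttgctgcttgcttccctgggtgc
Rtp2: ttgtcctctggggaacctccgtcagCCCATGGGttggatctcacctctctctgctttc

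Cnga4 held the motif once as well, after its start. No match was found in the 2 windows of Adcy3 or in those of Stoml3 and Ric8b. Over all 32851 RefSeq windows 13.7% held CCCNNGGG. The second motif searched, TAATTA, which homeodomain factors such as Lhx2 and Emx2 can bind, was in none of these windows of the genes and in 5.29% of all windows. A match is a run of letters and not a measured site. The window of Cngb1 lies at the start of its long form, while the short olfactory form is known to begin inside the gene.

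The 9 genes fell into a high and a low set. Per length, Rtp1 led with a median of 447 TPM over the 32 libraries, above 99.8% of the 49412 genes with a length. Rtp2 followed with 210 TPM, Cnga4 with 55.1 TPM, Cngb1 with 37.3 TPM, Adcy3 with 24.1 TPM and Ric8b with 12.1 TPM. After a gap came Stoml3 with 0.899 TPM, Gnal with 0.383 TPM and Cnga2 with 0.136 TPM. Both modifying channel subunits were thus among the upper 6, and the subunit that the olfactory channel needs was at the bottom. In the libraries with a Cnga2 read, 25 of 32, Cnga4 was 6.30 to 1416 times as high as Cnga2 in TPM, with a median of 248 times. The lowest ratios, 6.30 and 22.1, were those of B6 male replicates 3 and 4, and the next was 54.6. Counts merge the forms of a gene, so that the long and short forms of Cngb1 were not separated.

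**Figure D1:**
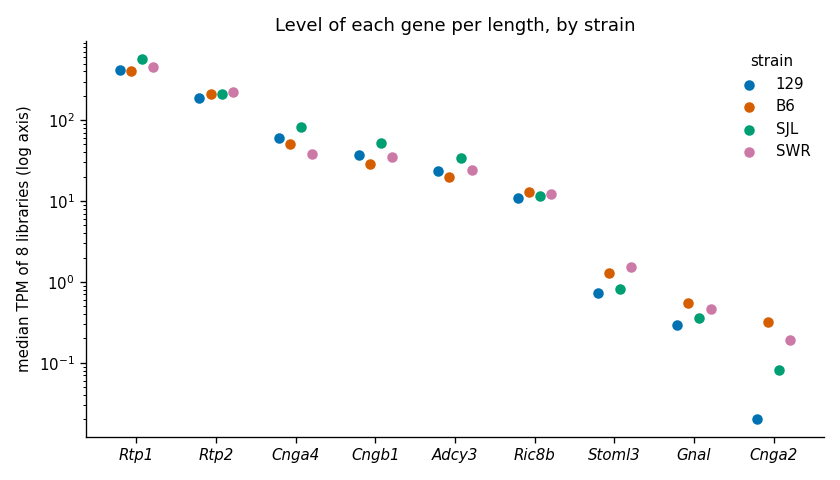
Median TPM of 8 libraries for each of the 9 genes (x axis) in each strain (colored points), on a log axis. Rtp1 to Ric8b lie at 10.96 TPM or more in every strain, and Stoml3, Gnal and Cnga2 at 1.54 TPM or less.

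Strains were compared in 6 pairs with edgeR's quasi-likelihood F test, sex being a covariate, over the 18382 genes tested. A gene was called differentially expressed (DE) at a fold change (FC) above 2 with a Benjamini-Hochberg false discovery rate (FDR) under 0.05. The log2 fold change (LFC) is given with its standard error (SE). Of the 9 genes 8 were tested, since Cnga2 did not pass the filter on low counts. Gnal and Stoml3 were called in B6 against 129, where 11.1% of all tested genes were called, in SJL against B6 (7.99% of all) and in SWR against B6 (8.05% of all). Cnga4 was called in SWR against SJL (4.50% of all). None of the 8 was called in SJL against 129 (8.38% of all) or SWR against 129 (7.73% of all). At an unadjusted p under 0.05 these last pairs held 5 and 2 of the 8, beside 45.8% and 48.9% of all tested genes. With DESeq2 the number called was 0 in both.

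Without a limit on FC, 6 of the 8 passed the FDR in B6 against 129, where 52.8% of all tested genes did. Gnal and Stoml3 were higher in B6 (27.3% of all genes were) and 4 were lower (25.5% of all). In SJL against 129, 5 passed (38.3% of all), of which 4 were higher in SJL (18.9% of all) and Ric8b was lower (19.4% of all). Only Cnga4 and Cngb1 passed in SWR against 129 (41.8% of all), both lower in SWR (21.8% of all), and none was higher (19.9% of all).

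In SJL against B6, 7 passed (45.7% of all), 4 higher in SJL (22.3% of all) and 3 lower (23.4% of all). SWR against B6 gave 6 (40.9% of all), with Cngb1, Adcy3 and Rtp1 higher in SWR (19.8% of all) and Cnga4, Gnal and Stoml3 lower (21.1% of all). SWR against SJL gave 5 (32.5% of all), with Ric8b higher in SWR (15.5% of all) and 4 lower (17.0% of all). The pairs share libraries, so that they are not independent of each other.

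A stricter description is a strain whose 8 libraries all lie outside the other 24. Cnga4 in SWR was below the rest, as 0.642% of all tested genes were, and Adcy3 in SJL was above the rest, as 0.794% were. No other member lay outside in any strain. The background was 1.44% of genes below and 1.44% above for 129, 1.95% and 1.57% for B6, 0.772% below for SJL and 1.21% above for SWR. Overlap within pairs of strains is given for each gene below as a description only. The share of all tested genes without such overlap was not counted.

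Cnga4, a modifying subunit of the olfactory channel (chromosome 7, 105404568 to 105408742, plus strand, GRCm38), was lowest in SWR. Its normalized count in the 8 SWR libraries ran from 438.7 to 568 with a median of 504. In B6 the lowest value was 630.3, the median 699 and the highest 779. In 129 the range was 806 to 1084 with a median of 890, and in SJL 889 to 1241 with a median of 1068. All 8 SWR libraries were below all other 24, and B6 did not overlap with any strain either. Only 129 and SJL overlapped. The LFC of SWR against SJL was -1.09 (SE 0.06, FDR = 8.22e-16 by edgeR), from means of 503 ± 38.6 and 1071 ± 109 (SD, n = 8 each). The LFC was -1.24 among females and -0.95 among males, so that males alone stayed under an FC of 2. Against 129 the LFC of SWR was -0.88 (SE 0.06) and against B6 -0.49 (SE 0.06), with edgeR FDRs of 1.72e-13 and 1.16e-07. B6 was lower than 129 by an LFC of -0.38 (SE 0.06), and SJL was higher than 129 by 0.22 (SE 0.06, FDR = 0.00603 by edgeR).

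Cngb1, the other modifying subunit (chromosome 8, 95239045 to 95306585, minus strand), had another order of strains, with B6 lowest. B6 ran from 1256 to 1607 with a median of 1365, and SWR from 1498 to 1820 with a median of 1617. The 129 libraries lay between 1648 and 2292 with a median of 1961, and the SJL libraries between 1928 and 2791 with a median of 2363. SJL did not overlap with B6 or SWR, and 129 did not overlap with B6. SJL exceeded B6 by an LFC of 0.77 (SE 0.06, FDR = 1.76e-12 by edgeR), an FC of 1.70. All 6 pairs passed the FDR and none reached an FC of 2.

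The ratio of these subunits differed between SWR and the other strains. The mean number of Cngb1 reads per Cnga4 read was 2.15 ± 0.249 for 129, 1.96 ± 0.123 for B6, 2.22 ± 0.249 for SJL and 3.26 ± 0.306 for SWR (SD, n = 8 each). The lowest SWR library, at 2.96, was above the highest of the other 24, at 2.76.

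Adcy3, the cyclase of the cascade (chromosome 12, 4133103 to 4213525, plus strand), was highest in SJL. The SJL libraries ran from 906 to 1131 with a median of 1064. The 129 libraries ran from 761 to 905.0 with a median of 796, the SWR libraries from 662 to 814 with a median of 755, and the B6 libraries from 475 to 733 with a median of 571. SJL did not overlap with any strain, though its lowest library was next to the highest of 129. SJL exceeded B6 by an LFC of 0.83 (SE 0.07, FDR = 1.90e-11 by edgeR), and 129 by 0.34 (SE 0.07). SWR against SJL had an LFC of -0.49 (SE 0.07). SWR against 129 had an LFC of -0.14 with a 95% interval of -0.29 to 0.0037 and did not pass the FDR (FDR = 0.112 by edgeR). Of the stretches of 1 read length in Adcy3 exons, 13.3% also lie in Cenpo on the opposite strand, and the counts were made by strand.

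Rtp1, a carrier of odorant receptors to the membrane (chromosome 16, 23429133 to 23433960, plus strand), was also highest in SJL and lowest in B6. SJL ran from 7883 to 9342 with a median of 8705 and B6 from 5738 to 6988 with a median of 6103, with no overlap. The 129 libraries lay between 6528 and 8073 (median 7237) and the SWR libraries between 6257 and 8148 (median 7112), both overlapping with SJL and B6. SJL exceeded B6 by an LFC of 0.48 (SE 0.05, FDR = 1.07e-09 by edgeR). In SWR against 129 the LFC was -0.02 with a 95% interval of -0.12 to 0.08.

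Rtp2, the close relative of Rtp1 on the same chromosome (23925548 to 23932394, minus strand), passed the FDR in none of the 6 pairs. At an unadjusted p under 0.05 it passed in none, and with DESeq2 no pair passed the FDR. The 129 libraries ran from 2385 to 2924 (median 2851), the B6 libraries from 2625 to 2959 (median 2857), the SJL libraries from 2487 to 2855 (median 2717) and the SWR libraries from 2698 to 3088 (median 2905), and the strains all overlapped. The widest LFC was that of SWR against SJL at 0.08, with a 95% interval of -0.00317 to 0.16, and for B6 against 129 the interval was -0.08 to 0.08. Rtp1 and Rtp2 differed in their strain pattern. The ratio of their reads was 3.06 to 3.49 in the SJL libraries and 2.03 to 2.78 in the other 24, with no overlap. Within strains they varied together across libraries, with r = 0.66 over 32 libraries after centring by strain, where both values of a point share a library and its depth.

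Ric8b (chromosome 10, 84917616 to 85018337, plus strand) varied least by strain among the tested genes after Rtp2. Values ran from 284 to 343 for 129 (median 327), 310 to 403 for B6 (median 329.5), 265 to 323 for SJL (median 295) and 303 to 346 for SWR (median 320), and the strains all overlapped. SJL was lower than B6 by an LFC of -0.21 (SE 0.05, FDR = 0.00111 by edgeR). SJL against 129 (LFC -0.14, FDR = 0.0333 by edgeR) and SWR against SJL (LFC 0.14, FDR = 0.0377 by edgeR) were near the limit, and they lost it without 1 library in 12 and 10 of 32 fits. These libraries included SJL male and female replicates 1 and 2 for both pairs, with 129 female replicates 2 to 4, 129 male replicate 2, B6 female replicate 3, B6 male replicate 4 and SWR male and female replicates 4 for the former, and SWR male replicates 2 and 4, SWR female replicates 3 and 4, B6 female replicate 3 and B6 male replicate 4 for the latter. The highest value, 403, was that of B6 male replicate 3.

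**Figure D2:**
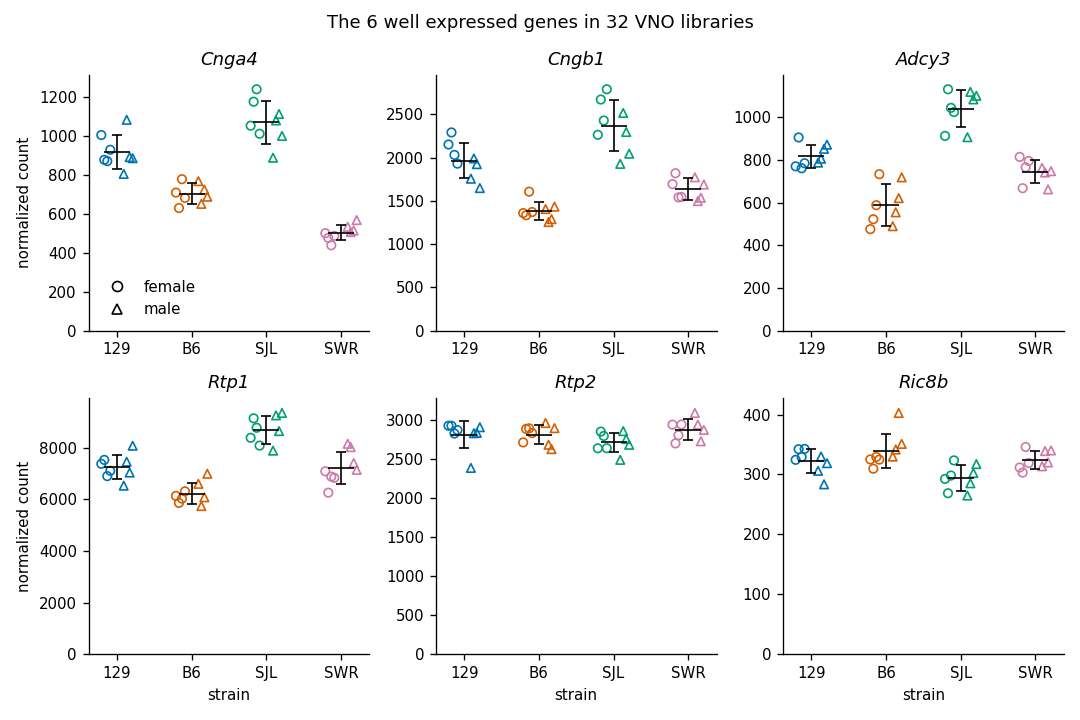
Normalized counts of the 6 well expressed genes by strain, with females as circles, males as triangles, and the mean ± SD of 8 libraries in black. Cnga4 is lowest in SWR at 438.7 to 568, Cngb1, Adcy3 and Rtp1 are highest in SJL and lowest in B6, and the Rtp2 means of the 4 strains lie between 2711 and 2875.

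Cell type markers differed between the strains as well. The summed count of 19 vomeronasal neuron markers ran from 50389 to 58504 for B6, 57763 to 69890 for 129, 61681 to 70756 for SJL and 63588 to 74157 for SWR, with Trpc2 the one marker at 0. Of the 18 tested markers 11 were lower in B6 than in 129 past the FDR, beside 25.5% of all tested genes. Only 1 was higher, beside 27.3% of all. The median LFC was -0.24 beside 0.02 over all tested genes. In SWR against B6, 14 were higher (19.8% of all tested genes) and none lower (21.1% of all), with a median of 0.27. In SWR against SJL, the pair in which Cnga4 was called, 4 were higher (15.5% of all) and 4 lower (17% of all). The median there was 0.06. The 6 macrophage markers summed to 1113 to 1512 in B6 and 458 to 682 in 129, with none at 0. Their part in the values of Cnga4, Cngb1, Adcy3 and Rtp1 was not tested, and in whole tissue fewer cells of a type and less RNA per cell cannot be told apart.

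Gnal, the G protein subunit of the odor cascade (chromosome 18, 67088216 to 67226792, plus strand), was low in all libraries but 2. In the other 30 libraries it ran from 7.88 to 38.6 with a median of 21.0. B6 male replicate 3 had 226 and B6 male replicate 4 had 79.2, from 223 and 83 reads. In the remaining 6 B6 libraries the range was 17.7 to 33.0, inside that of the other strains. B6 against 129 had an LFC of 1.59 (SE 0.41, FDR = 0.00150 by edgeR) with all libraries and 0.40 (SE 0.24, FDR = 0.169 by edgeR) without these 2. SJL against B6 moved from an LFC of -1.43 to -0.19 and SWR against B6 from -1.14 to 0.06, and all 3 calls were lost. Without replicate 3 alone they were 0.87, -0.67 and -0.41, and the last 2 did not pass the FDR.

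Stoml3, the stomatin-like protein of olfactory cilia (chromosome 3, 53488653 to 53508502, plus strand), repeated this pattern. The same 2 libraries had 228.2 and 65.8, from 225 and 69 reads, and the other 30 ran from 4.26 to 25.4 with a median of 9.93. Its call in B6 against 129 was at an LFC of 2.27 (SE 0.52, FDR = 0.000457 by edgeR) with all libraries and 0.50 (SE 0.28, FDR = 0.140 by edgeR) without these 2. SJL against B6 went from -2.21 to -0.38 and SWR against B6 from -1.24 to 0.50. With all libraries SWR against 129 had an LFC of 1.02 (SE 0.54, FDR = 0.133 by edgeR) and SWR against SJL 0.97 (SE 0.54, FDR = 0.175 by edgeR). In the 30 libraries left, SWR was higher than 129 by an LFC of 1.004 (SE 0.24, FDR = 0.00129 by edgeR) and than SJL by 0.88 (SE 0.24, FDR = 0.00469 by edgeR). The SWR libraries held 8.99 to 25.4, the 129 libraries 4.26 to 10.7 and the SJL libraries 5.91 to 16.7, so that the ranges overlapped.

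Cnga2, the main channel subunit (X chromosome, 71991849 to 72010218, plus strand), was at or near 0 in most mice. It had 0 reads in 7 libraries and 3 or fewer in 21. B6 male replicate 3 had 132 reads and B6 male replicate 4 had 38, while the highest of the other 30 had 8. As normalized counts these were 134 and 36.2, against 0 to 10.1 with a median of 1.95. Over the other 30 libraries 72 Cnga2 reads were counted in 353504513 reads, or 0.204 CPM (CPM being reads scaled as TPM is but without the gene's length, 95% exact Poisson interval 0.159 to 0.256, counting error only). Pooled by strain, 129 had 5 reads, or 0.0530 CPM (0.0172 to 0.124), SJL 18, or 0.182 CPM (0.108 to 0.288), SWR 29, or 0.288 CPM (0.193 to 0.413), and the 6 remaining B6 libraries 20, or 0.336 CPM (0.205 to 0.519). The interval of 129 lay below those of SWR and B6 and met that of SJL, and it covers reads and not mice. In 129 the number of genes with any read was also lower, at 22690 to 23895 against 23772 to 35073 in the other strains, and the part of this in the Cnga2 reads was not tested. Cnga2 entered the test with no filter on low counts, where B6 against 129 gave an LFC of 4.72 (FDR = 3.37e-06 by edgeR) with all libraries and 2.31 (SE 0.76, FDR = 0.0140 by edgeR) without B6 male replicates 3 and 4. SWR against 129 gave 2.25 (FDR = 0.102 by edgeR) and 2.24 (SE 0.71, FDR = 0.0177 by edgeR). SJL against B6 went from -3.27 to -0.66 and SWR against B6 from -2.47 to -0.07, neither passing the FDR without the 2 libraries. These values rest on few reads, 5 in all for 129. The fit with no filter also called more genes among all genes in these pairs than the filtered fit did, as given with the alternatives below. How many it called without the 2 libraries was not counted. The filter itself kept Cnga2 in 29 of the 32 fits that left out 1 library. In B6 against 129 these gave LFCs of 4.49 to 5.31 and FDRs of 2.54e-05 to 0.000413 by edgeR. DESeq2 called it in that pair (LFC 4.95, FDR = 7.73e-06). All 29 fits held both B6 male replicates 3 and 4, as did DESeq2, so that they do not test the call without these libraries.

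**Figure D3:**
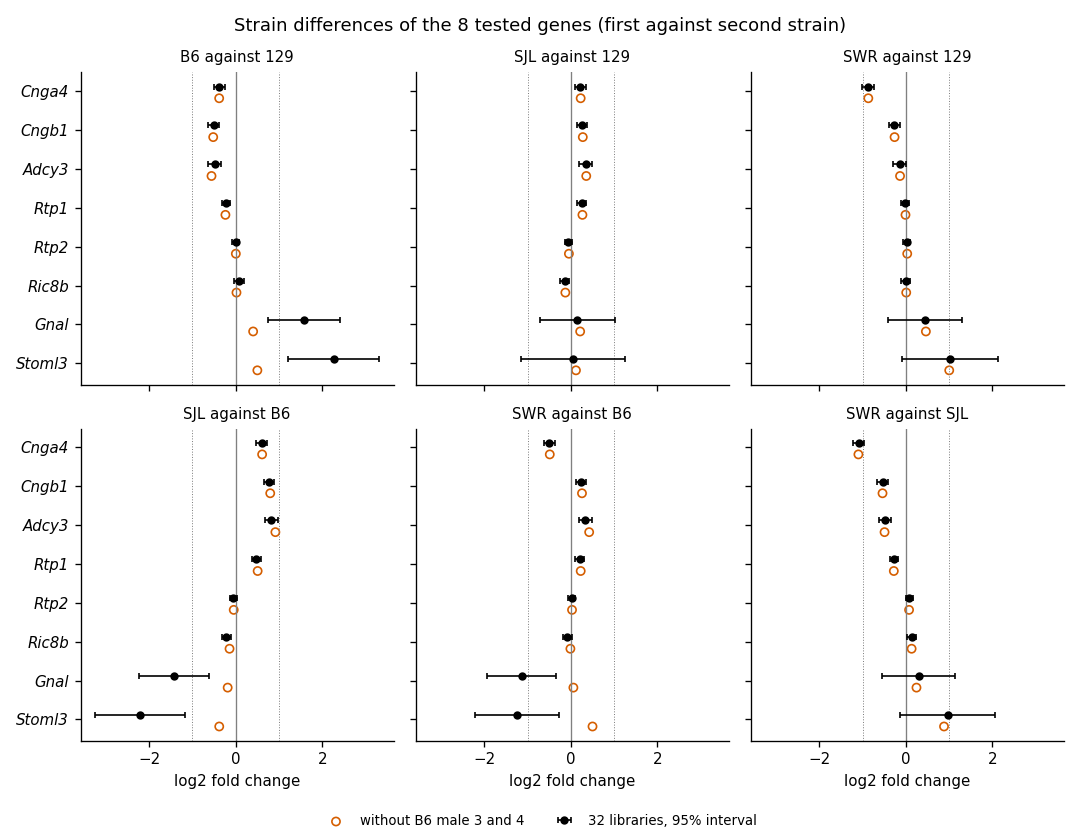
LFC of the 8 tested genes (rows) in the 6 strain pairs (panels), the first strain against the second, as black points with 95% intervals over 32 libraries and open points without B6 male replicates 3 and 4; dotted lines mark an FC of 2. For Gnal and Stoml3 the values with B6 move toward 0 or past it without the 2 libraries, while among the other 6 genes Adcy3 moves most, from 0.83 to 0.92 in SJL against B6.

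**Figure D4:**
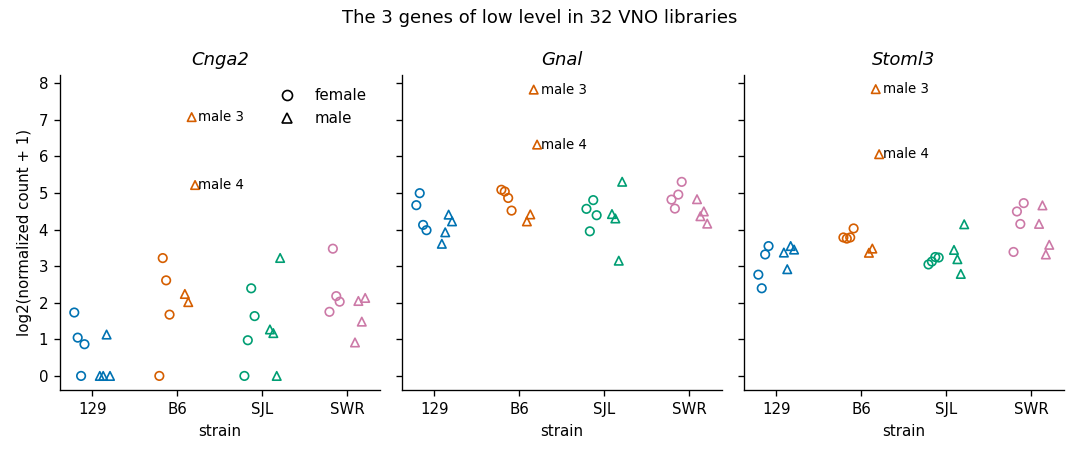
Log2 of the normalized count + 1 of Cnga2, Gnal and Stoml3 in each library by strain, with females as circles and males as triangles. B6 male replicates 3 and 4 lie above the other 30 libraries for all 3 genes, at normalized counts of 134 and 36.2 for Cnga2.

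The 3 low genes were high together in these 2 mice. Over the median of the other 6 B6 libraries, replicate 3 was 39.5 times as high for Cnga2, 9.03 times for Gnal and 18.1 times for Stoml3. In replicate 4 the figures were 10.7, 3.16 and 5.20 times. Most of the high set stayed near that median, with 1.04 and 0.989 times for Cnga4, 0.944 and 1.05 times for Cngb1, at most 1.15 times for Rtp1, and 0.919 and 1.01 times for Rtp2. Adcy3 was at 1.15 and 1.33 times and Ric8b at 1.23 and 1.07 times that median. For Ric8b, too, both libraries were above all other 30, at 403 and 351 against 346 at most.

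Genes with the pattern most like that of Cnga2 were ranked by Pearson's r over 32 libraries, after the log2 normalized counts (+ 1) had been centred within each strain. The first 10 were Olfr124, Gnal, Stoml3, Cyp2g1, Atp13a5, Sec14l3, Olfr1372-ps1, Cd36, Muc16 and Gm11696, with r from 0.78 to 0.59. Olfr124 is an odorant receptor known from the septal organ, a small patch of olfactory epithelium on the nasal septum, and Cyp2g1 is an enzyme of olfactory supporting cells. Without the 2 libraries none of the 10 was in the list, and the r of Olfr124 fell to 0.47 and that of Gnal to 0.42.

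Olfr124 had a normalized count of 517 in B6 male replicate 3 and 164 in replicate 4, and 0 to 18.8 in the other 30 libraries. It took 17.3% and 12.5% of all reads on 1116 protein-coding odorant receptor genes there, and at most 1.05% in any other library. The sum of the other odorant receptors was 2473 and 1150, within the range of 614 to 4267 of the other 30. Single receptors did stand out at low counts. Of the 1115 others, 7 were at 10.1 or more in replicate 3 and above 2 times the highest of the other 30 libraries. Receptors lower in replicate 3 were not counted. For Olfr1509 (27.4 and 8.58 against 5.55 at most) and Olfr281 (15.2 and 8.58 against 4.39 at most) replicate 4 was above that highest value too. The highest sums were those of B6 female replicates 2 and 4, at 4267 and 3980, where Cnga2 stood at 8.33 and 2.19. These libraries had 35073 and 31736 genes with any read, and B6 male replicates 3 and 4 had 31350 and 25482. In 129, where the sums were lowest, the number was 22690 to 23895. The part of this in the sums was not tested.

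**Figure D5:**
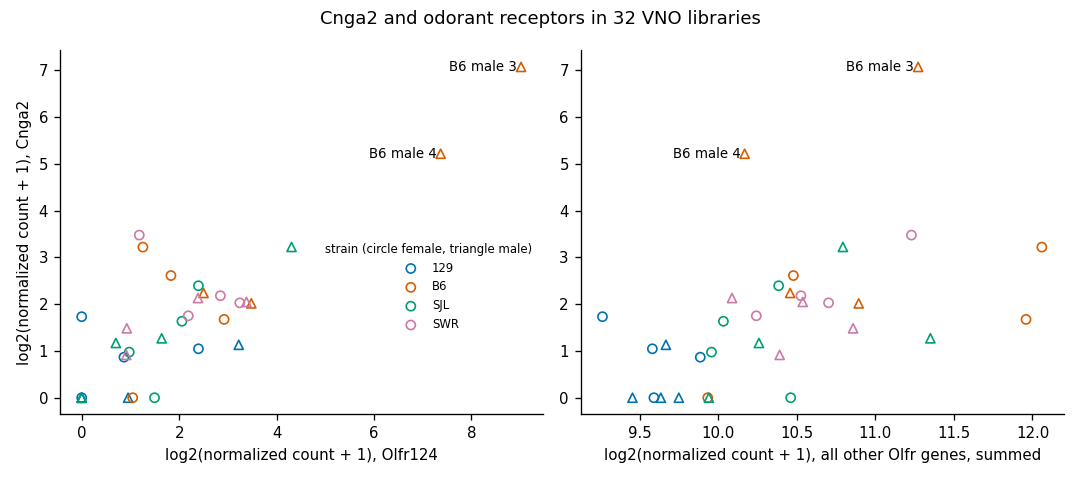
Log2 of the normalized count + 1 of Cnga2 (y axis) against that of Olfr124 (left) and of the sum of all other odorant receptor genes (right), 1 point per library. B6 male replicates 3 and 4 stand apart in Cnga2 and Olfr124, while their sums of the other receptors, 2473 and 1150, lie among those of the other 30 libraries.

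Cyp2g1 followed, with 437 and 72.5 in the 2 libraries and 0.626 to 34.5 in the others. Of the 9 listed markers of supporting cells of the main epithelium it was the only one with both libraries above the other 30, and their sum, 13958 and 15718, was within the range of 9327 to 26467. The 9 listed markers of main olfactory sensory neurons summed to 23478 and 26937, within 21622 to 35492, and none was at 0. Most of these, such as Umodl1 at a median of 514 TPM and Nqo1 at 325 TPM, were well expressed in all VNO libraries, so that the list does not separate the neurons of the main epithelium from those of the VNO. The 6 gland markers summed to 11581 and 42257, within the 3930 to 183881 of the other 30. Among them Obp1a, Obp1b and Bpifb9b were above all other libraries in replicate 3 and not in replicate 4, Obp1a being at 501 and 5.72 against 109 at most elsewhere. The part of tissue from outside the VNO in the values of Cnga2, Gnal and Stoml3 was not tested.

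The genes nearest to Cnga4, Cngb1, Adcy3, Rtp1, Rtp2 and Ric8b held an r of 0.46 or more without the 2 libraries. Cngb1 was nearest to Ccdc64, Clstn2 and Sptbn4 (r = 0.91, 0.90 and 0.90), and Cnga4 to Sh3glb2, Galnt12 and Saraf (r = 0.80, 0.77 and 0.77). Adcy3 was nearest to Por, Plod1 and Syt3 (r = 0.78, 0.76 and 0.73), Rtp1 to Plekhb1, Nsg1 and Emc7 (r = 0.87, 0.82 and 0.81), and Rtp2 to Rufy3, Ctnna2 and Uxs1 (r = 0.83, 0.82 and 0.81). Ric8b had no close match, with Gm9385 at 0.67 and Bicc1 and Tipin below. Gnal and Stoml3 shared their 3 nearest genes, Cyp2g1, Olfr124 and each other, with r = 0.77 between them and 0.25 without the 2 libraries.

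Females and males were compared over all strains, DE being an FC above 2 with an FDR under 0.01. None of the 8 tested genes was DE, and of all tested genes 0.0381% were called. Without the limit on FC 0.141% passed, 0.0762% being higher and 0.0653% lower in males, and again none of the 8. At an unadjusted p under 0.05, 2 of the 8 passed by edgeR, as did 8.97% of all tested genes, and with DESeq2 none was called. Cngb1 was lower in males with an LFC of -0.13 (95% interval -0.21 to -0.04, FDR = 0.305 by edgeR). The mean of Cngb1 was lower in males of all 4 strains, by LFCs of -0.20 for 129, -0.07 for B6, -0.20 for SJL and -0.03 for SWR. Stoml3 had an LFC of 0.81 in males (FDR = 0.526 by edgeR), which became -0.02 without the 2 libraries. For Cnga4 the interval was -0.09 to 0.10, for Adcy3 -0.09 to 0.12, for Rtp1 -0.00028 to 0.14, for Rtp2 -0.08 to 0.04 and for Ric8b -0.06 to 0.09.

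The interaction of sex and strain, tested at an FDR under 0.05, called none of the 8 by edgeR, beside 0.0163% of all tested genes, and DESeq2 called none either. At an unadjusted p under 0.05, where 8.94% of all tested genes passed, 2 of the 8 did, Gnal (FDR = 0.499 by edgeR) and Stoml3 (FDR = 0.458 by edgeR). In B6 males these were 2.93 and 5.89 times as high as in B6 females, from B6 male replicates 3 and 4. Without them the LFCs of B6 males were -0.60 and -0.42.

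Other genes of the odor cascade were mostly well expressed in the VNO. Of 15 listed genes all were tested, 13 passed the FDR in at least 1 strain pair, as did 80.1% of all tested genes, and 2 were called with the FC limit, against 19.8% of all. Slc24a4, the sodium-calcium exchanger of olfactory cilia, was higher in SJL than in B6 (228 and 113, LFC 1.005, SE 0.10, FDR = 7.64e-10 by edgeR). Gfy, a Golgi protein of olfactory neurons, was lower in B6 than in 129 (1288 and 3170, LFC -1.30, SE 0.17, FDR = 1.15e-07 by edgeR). Ano2, the calcium-gated chloride channel of olfactory cilia, ran from 1876 to 2655 and passed the FDR in no pair. Grk3, a kinase of olfactory receptor signaling, was lower in SJL and SWR (510 and 457) than in 129 and B6 (828 and 766), past the FDR in these 4 pairs and under an FC of 2. In B6 against 129 the list had 1 gene higher (27.3% of all tested genes) and 8 lower (25.5% of all) past the FDR. Its median LFC was -0.15.

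Relatives of the 9 genes were followed as well. Of 18 listed, 13 were tested, and 10 passed the FDR in at least 1 pair, beside 80.1% of all tested genes. Rtp4 and Adcy7 were called, beside 19.8% of all. Rtp4, a relative of Rtp1 known to respond to interferon, averaged 165 for 129, 532 for B6, 349 for SJL and 308 for SWR, with an LFC of 1.69 in B6 against 129 (SE 0.15, FDR = 1.35e-11 by edgeR). Adcy7 was higher in SJL than in 129 (93.9 and 45.7, LFC 1.05, SE 0.19, FDR = 4.35e-05 by edgeR). The other A subunits of the channel family, Cnga1 and Cnga3, were as low as Cnga2, at medians of 0.032 and 0.247 TPM. Gnas, the stimulating G protein subunit closest to Gnal, stood at 57.1 TPM and Adcy2 at 50.1 TPM, both above Gnal, and Stom at 1346 TPM was above Stoml3.

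Factors that act at olfactory promoters were present in all libraries. Ebf1, Ebf2 and Ebf3 had medians of 83.6, 99.1 and 60.3 TPM, Lhx2 53.9 TPM and Emx2 56.7 TPM, while Ebf4 had 1.70 TPM. None of the 8 listed factors was called in any pair, beside 19.8% of all tested genes in at least 1 pair, and 7 passed the FDR without the FC limit, beside 80.1% of all. Lhx2 was lower in B6 than in 129 (991 and 1493, LFC -0.59, SE 0.07, FDR = 1.05e-08 by edgeR).

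Markers of other cells and tissues are given by the number called in at least 1 strain pair, where 19.8% of all tested genes were. Of the 9 tested markers of main olfactory neurons 3 were called (Gfy, Acsm4 and Nqo1), of 7 for supporting cells 6 (Cyp2g1, Ugt2a2, Ermn, Sult1c1, Cyp2a5 and Muc2), of 4 for guanylyl cyclase D neurons 3 (Gucy1b2, Ms4a4a and Ms4a7), of 18 for vomeronasal neurons 1 (Vmn2r5), and of 6 for glands 4 (Obp1a, Obp1b, Obp2a and Bpifb9b). For ciliated cells 4 of 7 were called (Foxj1, Dnah5, Tekt1 and Tppp3) and for macrophages 4 of 6 (C1qa, C1qb, C1qc and Adgre1). Without B6 male replicates 3 and 4, Cyp2g1 passed the FDR in none of its 3 pairs. Obp1a, Obp1b and Bpifb9b were called in the same 3 pairs, those with B6. In B6 male replicate 3 they stood at 501, 278 and 86.2, against 109, 62.3 and 34.1 at most in the other 30 libraries. Their tests without that library are not given here. Of the 5 red blood cell markers 3 were called (Hba-a1, Hba-a2 and Hbb-bt) and of 6 for bone and cartilage 2 (Acan and Col2a1). None of the 5 skeletal muscle markers passed the filter on low counts.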

How the data were processed

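Libraries were made from ribosome-depleted total RNA of the VNO epithelium of single mice. The authors trimmed reads, aligned them with STAR to the GRCm38 reference for all strains, and deposited whole-number read counts per Ensembl 87 gene, uniquely assigned by strand. The deposited normalized counts (a signal per gene with no length correction) were made by the authors with DESeq2 size factors, and each library's ratio to its counts was a single value in all 32 libraries. Because the reference derives from B6, strain variants in reads can affect alignment unequally. This was not tested.

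Counts were tested with edgeR 4.0.16 (R 4.3.3, limma 3.58.1) by the quasi-likelihood F test after TMM scaling and filterByExpr over 8 groups, with strain and sex in the model and, separately, their interaction. P-values were adjusted by Benjamini-Hochberg over 18382 genes. The SE of an LFC was derived from its F value. TPM used summed exon lengths for 49412 genes. DESeq2 1.42.0, no filter, other limits on FC, the replicate number as a block, each sex alone and leaving out libraries were alternatives. On simulated data with 200 genes changed 4-fold, 196 were recovered with 0 false calls for B6 against 129 (17782 genes), 190 with 0 for sex (17750 genes) and 181 with 8 for the interaction (17797 genes). The simulation gave all genes the same dispersion and held no outlying library, so that it does not cover the calls of Gnal and Stoml3. No 2 libraries of a group agreed within sampling noise (chi-square per degree of freedom 2.71 to 48.2). Depth, 5106398 to 18640871 reads, limits Cnga2, Gnal and Stoml3 most.

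The members and gene lists were chosen with earlier results of these data known. Named genes were the 9 members, the genes of each list called in at least 1 strain pair (at most 6 by size of LFC), and those most like each member. Genes named outside this rule, such as Grk3, Lhx2, Ano2 and Obp1a in single libraries, were chosen after their values were seen.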

Additional observations from a re-analysis of the deposited data

Results flagged for a closer look

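Within groups of 4 mice and strains of 8, the highest or lowest library of each of the 9 genes was set against Dixon's critical value for its gap to the nearest other. Of 108 groups 15 passed it, 8 of 72 groups of 4 and 7 of 36 strains, where chance gives about 1 in 20. In the 8 B6 mice, male replicate 3 stood above the rest for Cnga2 (134, nearest 36.2), Gnal (226, nearest 79.2), Stoml3 (228.2, nearest 65.8) and Ric8b (403, nearest 351), and the nearest was male replicate 4 each time.

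For Cnga2 the other cases were at low counts. SWR female replicate 2 had 10.1 (nearest 3.54), among the females and among all 8 SWR mice. SJL male replicate 4 had 8.35 (nearest 1.41) and 129 male replicate 3 had 1.19 (nearest 0). For Stoml3, SJL male replicate 4 had 16.7 among the 8 SJL mice (nearest 9.89) and B6 female replicate 4 had 15.4 among the females (nearest 12.8).

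Among the well expressed genes, Cngb1 was at 1607 in B6 female replicate 3 (nearest 1371). Adcy3 was at 905.0 in 129 female replicate 2 (nearest 784) and lowest at 906 in SJL male replicate 1 (nearest 1083.5). Rtp2 was lowest at 2385 in 129 male replicate 1, with the nearest at 2828 among the males and 2824 among the 8 mice of 129.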

How the results depend on the processing

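The 25 strain differences of Cnga4, Cngb1, Adcy3, Rtp1 and Ric8b that passed the FDR kept their direction in all 225 values under the alternatives. The 32 fits that left out 1 library entered these values only as their lowest and highest LFC. Of the 225 values 12 no longer passed, 8 of them for Ric8b. For Gnal and Stoml3 12 of 54 values no longer passed and 4 turned. With B6 male replicates 3 and 4 left out, SWR against B6 went to 0.061 for Gnal and 0.50 for Stoml3, and with females alone to 0.038 and 0.49. That alternative was chosen after seeing the data.

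Of the 8 tested genes, 2 were called in B6 against 129, 2 in SJL against B6, 2 in SWR against B6 and 1 in SWR against SJL. Without both B6 male libraries these became 0, 0, 0 and 1, and SWR against 129 rose from 0 to 1 (Stoml3). Females alone gave 0 in each of the 3 pairs with B6. Of all 18382 tested genes, females alone gave 2308 in B6 against 129, 1425 in SJL against B6 and 1347 in SWR against B6. Males alone gave 0 in SWR against SJL, beside 804 of all tested genes. With an FC above 1.5 SJL against B6 gave 5 and SWR against 129 gave 1, beside 3072 and 2839 of all 18382 tested genes. With no limit on FC the 6 pairs gave 6 (B6 against 129), 5 (SJL against 129), 2 (SWR against 129), 7 (SJL against B6), 6 (SWR against B6) and 5 (SWR against SJL). Leaving out 1 library at a time gave 1 to 3 in B6 against 129, 1 to 3 in SJL against B6, 0 to 3 in SWR against B6, 0 to 1 in SWR against 129 and 1 in SWR against SJL. The count of 3 includes Cnga2, which passed the filter in 29 of the 32 fits, all of them with both B6 male replicates 3 and 4. DESeq2 gave 3 in the same 3 pairs, Cnga2 included. Without B6 male replicate 3 alone, Gnal fell to an LFC of 0.87 in B6 against 129 (edgeR FDR = 0.0132), -0.67 in SJL against B6 (0.0558) and -0.41 in SWR against B6 (0.260), and Stoml3 to -0.23 in SWR against B6 (0.617). That Stoml3 call was also lost without any 1 of B6 male replicate 4, SWR female replicate 1 and SWR male replicates 1 to 4.

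With no filter on low counts the interaction called 3, Cnga2 (edgeR FDR = 0.0187), Gnal (0.0183) and Stoml3 (0.00867). With both B6 male libraries also left out, chosen after seeing the data, none of these passed, at unadjusted p = 0.475, 0.539 and 0.561 by edgeR. Over all genes, B6 against 129 called 2044 with the filter, 10027 without it and 5282 with DESeq2. SJL against 129 called 1540, 4482 and 2798, and SWR against 129 called 1421, 3353 and 2366. Without the filter SJL against B6 called 2316 (1469 with it) and SWR against B6 2845 (1480 with it). The interaction called 3 genes, 428 without the filter, 72 with DESeq2, and up to 8 with 1 library left out. The cause of these changes was not tested.

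The labels do not say what the replicate number stands for, and they give nothing else that same-numbered mice share. With it as a block SWR against B6 called 1 of the 8 genes in place of 2, Stoml3 being lost at an LFC of -0.97, and the other pairs kept their counts. Correlations of deviations between same-numbered libraries ran from -0.29 to 0.48 with a median of -0.01, and 9 of 32 libraries correlated best with their own number.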
